A study of Mus musculus with 62 samples.

Results

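The interferon-response genes described here are 42 mouse genes, chosen by name as known targets or components of interferon signalling and found in the table of counts by their Ensembl identifiers. They are 42 of the 48795 genes in the table. The data are 62 RNA-seq libraries of mouse striatum, in 16 groups of 3 or 4. The study used viruses that carry a zinc-finger repressor meant to lower mutant huntingtin. It asked what they do to the striatal transcriptome when astrocytes or neurons are targeted.

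In the R6/2 series, R6/2 mice and NCAR mice (the control genotype of that series, an abbreviation that the labels do not expand) were injected with AAV of the PHP.eB type when 4 weeks old and had tissue taken at 11 weeks. R6/2 mice carry a transgene with the first exon of human HTT and a long CAG repeat. Each genotype received 1 of 4 viruses. A-ZFP is the repressor labelled for astrocytes, and A-Delta is its control virus. N-ZFP is the repressor labelled for neurons, and N-Delta is its control virus. The labels disagree on the N viruses of this series: the cell-type field gives neurons, whereas the treatment text calls them astrocytic. All 31 libraries of the R6/2 series are of bulk striatal tissue, with 3 libraries of R6/2 mice given A-ZFP and 4 in each other group. In the zQ175 series, zQ175 mice, which carry an expanded repeat in their own Htt gene, and WT mice were injected in the striatum with N-ZFP or N-Delta when 6 months old, and tissue was taken at 12 months. This series has 16 libraries of neuronal RNA, 4 per group, and 15 libraries of bulk tissue, with 3 of WT mice given N-ZFP and 4 in each other group. The column headers mark the neuronal libraries as N_IP and the bulk libraries of this series as Input. How the neuronal RNA was isolated is not otherwise given in the sources used here. Every mouse, controls included, had received an AAV, so no group shows the level of these genes without a virus. The labels do not say whether replicates are separate animals, so p-values measure the spread between these libraries.

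Interferons are secreted proteins that cells release on sensing foreign nucleic acid. Type I interferons bind a receptor made of Ifnar1 and Ifnar2, whose kinases phosphorylate Stat2, and Stat2 with Irf9 forms part of a complex that binds a GAAA-repeat element near target genes. The targets include antiviral enzymes, sensors that amplify the response, and parts of the machinery that displays peptides to T cells. In the brain, microglia, astrocytes, endothelial cells and neurons all can express them.

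Promoters of 5 members are shown because these genes recur in the results below and because the element bound by the complex that holds Stat2 and Irf9 can be seen in the letters. Each is the RefSeq window of 250 bases before to 50 bases after the gene start, in build GRCm38.p6, read 5′ to 3′ on the gene's strand. Capitals mark GAAA, any 2 bases (NN) and GAAA on either strand, which reads TTTC, NN and TTTC where the match lies on the opposite strand; neighbouring matches may overlap.
Irf7, chr7:141266375-141266674, minus strand, with no match: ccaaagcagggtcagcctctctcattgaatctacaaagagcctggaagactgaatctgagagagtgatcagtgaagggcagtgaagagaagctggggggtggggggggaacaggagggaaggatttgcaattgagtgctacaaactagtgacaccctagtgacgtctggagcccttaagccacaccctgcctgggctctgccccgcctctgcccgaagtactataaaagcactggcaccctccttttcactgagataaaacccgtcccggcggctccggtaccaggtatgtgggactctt
Ifit1, chr19:34640639-34640938, plus strand, with 2 matches: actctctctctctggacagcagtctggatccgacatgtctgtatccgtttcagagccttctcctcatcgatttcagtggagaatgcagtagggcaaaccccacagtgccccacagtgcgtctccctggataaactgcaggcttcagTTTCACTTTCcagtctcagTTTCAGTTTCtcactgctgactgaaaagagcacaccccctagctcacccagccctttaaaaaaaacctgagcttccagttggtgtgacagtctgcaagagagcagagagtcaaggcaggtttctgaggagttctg
Ifit3, chr19:34583279-34583578, plus strand, with 2 matches: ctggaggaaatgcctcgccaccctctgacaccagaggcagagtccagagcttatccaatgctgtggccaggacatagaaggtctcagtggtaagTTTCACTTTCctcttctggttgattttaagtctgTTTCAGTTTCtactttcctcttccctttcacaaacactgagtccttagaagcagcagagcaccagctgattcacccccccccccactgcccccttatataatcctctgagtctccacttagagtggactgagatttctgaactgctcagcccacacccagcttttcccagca
Isg15, chr4:156200769-156201068, minus strand, with 3 overlapping matches: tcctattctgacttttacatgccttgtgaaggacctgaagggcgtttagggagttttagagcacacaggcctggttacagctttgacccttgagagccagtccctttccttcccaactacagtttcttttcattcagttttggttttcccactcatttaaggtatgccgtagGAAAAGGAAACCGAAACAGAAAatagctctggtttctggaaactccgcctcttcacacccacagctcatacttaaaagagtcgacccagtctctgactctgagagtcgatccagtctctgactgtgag
B2m, chr2:122147437-122147736, plus strand, with 1 match: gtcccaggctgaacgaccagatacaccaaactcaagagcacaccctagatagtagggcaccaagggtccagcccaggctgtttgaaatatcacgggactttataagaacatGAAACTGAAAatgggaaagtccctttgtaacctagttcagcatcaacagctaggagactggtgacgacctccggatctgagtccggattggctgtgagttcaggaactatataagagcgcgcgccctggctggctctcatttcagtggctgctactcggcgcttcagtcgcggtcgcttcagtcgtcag
A window was found for 32 of the 42 members. The motif was present in 14 of these (43.8%), against 1079 of the 27025 genes of the whole genome with a window of the same length (3.99%). A match is a run of letters and not a shown binding site, and a window without one says nothing of the factor: Irf7, with 0 matches, had some of the largest differences below. Several members sit side by side in the genome. The 4 Ifit genes lie on chromosome 19 between positions 34550694 (start of Ifit2) and 34650009 (end of Ifit1), and Psmb9, Tap1 and Psmb8 lie on chromosome 17 between 34181987 and 34201454 (mm10, GENCODE M21).

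The libraries differed in depth and in other ways that bear on the comparisons. Total counts were 49237583 to 101295189 per library in the R6/2 series, 4610476 to 12200813 in the neuronal libraries and 8664055 to 11211827 in the bulk libraries of the zQ175 series. The mouse gene Htt averaged 232 ± 20.6 CPM (normalised counts, scaled to a common library total) in R6/2 mice given A-ZFP and 239 ± 4.85 CPM in R6/2 mice given A-Delta (SD, n = 3 and 4). Reads were aligned to the mouse genome and the R6/2 transgene is human HTT, so in the R6/2 series this value does not measure the mutant transcript. In zQ175 mice the counts do not separate mutant from normal transcripts. Htt was not called in any comparison of a ZFP virus with its Delta virus (edgeR quasi-likelihood test, Benjamini-Hochberg adjusted p under 0.05 over all genes tested, the rule for every call below). Htt was lowest in NCAR mice given N-Delta, at 151 ± 23.7 CPM against 257 ± 31.4 CPM in NCAR mice given A-Delta (SD, n = 4 each; log2 fold change -0.76, adjusted p = 0.0014). It was called higher in R6/2 than in NCAR mice under N-Delta (0.65), and its N-ZFP effect in R6/2 minus that in NCAR mice was -0.68 (adjusted p = 0.0161). The length index, the Spearman correlation across genes between a library's deviation and transcript length, was -0.51 to -0.32 in the 4 libraries of NCAR mice given N-Delta and 0.23 to 0.38 in those of R6/2 mice given N-Delta. The index comes from the same counts and separates these groups without overlap. As a covariate it can therefore also take out differences between the groups themselves, and the 2 cannot be told apart. Striatal neuron markers were called lower for 9 of 10 genes in R6/2 mice given A-ZFP or A-Delta and for 6 of 10 under either N virus, each against NCAR mice. Microglial markers summed to 428 to 606 CPM in R6/2 libraries and 426 to 631 CPM in NCAR libraries, so the summed levels overlapped, but under N-Delta 2 of 12 were called higher and 6 lower. Astrocyte markers summed to 3863 to 4176 CPM in R6/2 mice given A-ZFP against 4953 to 5401 CPM in NCAR mice given A-ZFP, and to 3355 to 3605 CPM against 4755 to 5352 CPM under A-Delta. Of 10 astrocyte markers, 3, 6, 7 and 4 were called lower under A-ZFP, A-Delta, N-ZFP and N-Delta, and 2, 1, 1 and 1 higher. Of 8 oligodendrocyte markers, 3, 5, 3 and 4 were called lower in the same order and 0 higher. Endothelial markers summed to 261 to 308 CPM in R6/2 mice given N-Delta, against 123 to 171 CPM in NCAR mice given N-Delta, with 6 of 10 called higher. The part of these shifts in the results below was not tested, except where a value with the length index as a covariate is given. In bulk tissue, fewer cells of a type and less RNA per cell cannot be told apart.

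Most members were expressed at a low level. Per kilobase of transcript, in NCAR mice given A-Delta, B2m, the light chain of MHC class I, was highest at 84.0 CPM per kb. Ifi27, a mitochondrial protein gene induced by interferon, had 15.9, and Cmpk2, a mitochondrial nucleotide kinase gene, had 10.9 CPM per kb. Irf7, a transcription factor that amplifies type I interferon production, had 0.395 CPM per kb and Isg15, a ubiquitin-like protein attached to other proteins, had 0.242. Oas3 was lowest at 0.0052 CPM per kb and was not tested in any comparison because its counts were too low.

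Between R6/2 and NCAR mice most of the interferon-response genes were higher in R6/2 under every virus. Under A-ZFP, 37 members were called higher and 0 lower of 41 tested, where 10.2% of all genes were called higher and 12% lower. Under A-Delta, 28 were called higher and 1 lower, against 13.7% and 15.3% of all genes. N-ZFP gave 31 higher and 0 lower, against 3.09% and 4.25%, and N-Delta gave 30 higher and 2 lower, against 27.1% and 28.4%. The median log2 fold change of the 41 tested members was 1.09 under A-ZFP, 0.95 under A-Delta, 0.91 under N-ZFP and 0.91 under N-Delta, whereas the median over all genes lay between -0.03 and 0.02. Over the members, 24 were called higher under all 4 viruses, a set that held 1.77% of all genes. A further 7 were called higher under 3 viruses, 2 under 2 and 5 under 1, and 3 under none. The A-ZFP count and the set called under all 4 viruses rest in part on 1 library. Without replicate 2 of the R6/2 mice given A-ZFP, 25 members were called higher under A-ZFP. Ifih1, which is in that set, was among those that lost the call. Oas3 is the 1 member of 42 left out by the filter on low counts.

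**Figure D1:**
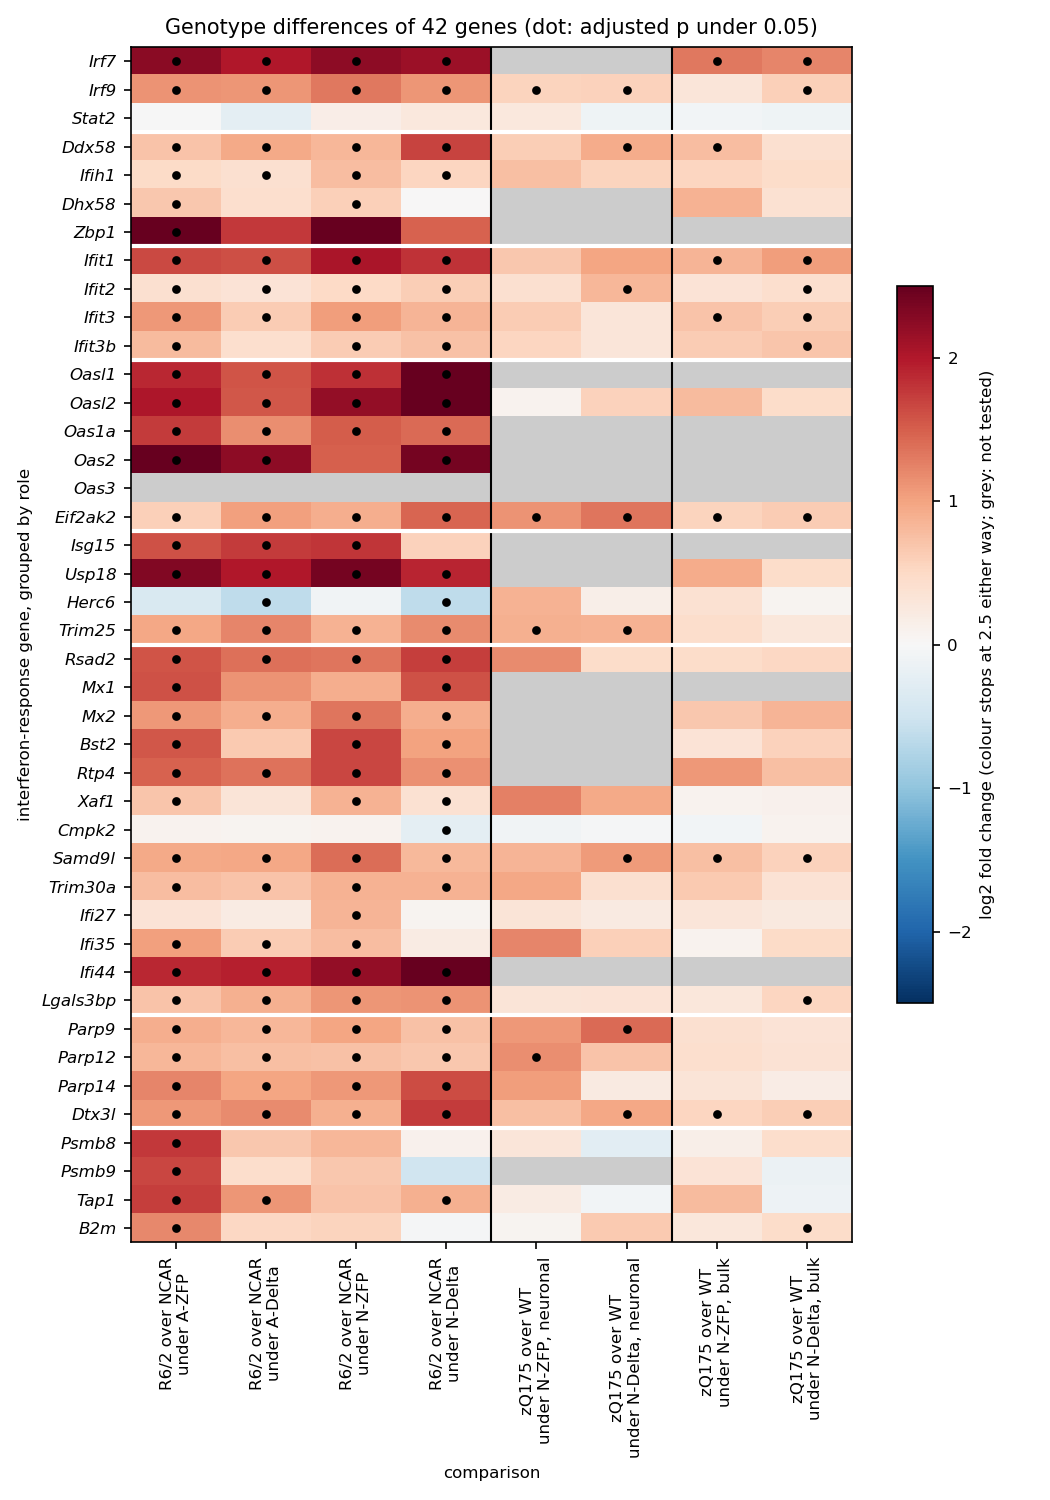
Log2 fold change of each of the 42 genes (rows, by role) in R6/2 over NCAR mice under A-ZFP, A-Delta, N-ZFP and N-Delta, and in zQ175 over WT mice in neuronal and bulk libraries (columns); dots mark adjusted p under 0.05, grey cells were not tested, and colours stop at 2.5. The R6/2 columns are nearly all positive, with 37, 28, 31 and 30 genes called higher, and Herc6 and Cmpk2 stand out as rows near or below 0.

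Among the transcription factors, Irf7 and Irf9 were higher in R6/2 under each virus and Stat2 was not called. Irf7 had 5.63, 6.16 and 4.23 CPM in R6/2 mice given A-ZFP, against 1.10, 0.971, 0.916 and 1.47 CPM in NCAR mice given A-ZFP. With A-Delta it had 6.70, 3.59, 3.93 and 6.40 CPM in R6/2 mice, against 1.07, 1.22, 1.66 and 1.17 CPM in NCAR mice. With N-ZFP it had 7.81, 5.57, 5.54 and 6.24 CPM in R6/2 mice, against 0.896, 2.00, 1.45 and 1.03 CPM in NCAR mice. Thus the R6/2 and NCAR libraries did not overlap under any of these 3 viruses. With N-Delta it had 4.06, 8.31, 7.61 and 4.06 CPM in R6/2 mice and 1.36, 1.40, 1.99 and 0.733 CPM in NCAR mice, again with no overlap. The log2 fold change of Irf7 was 2.26 ± 0.31 (SE) under A-ZFP (adjusted p = 4.25e-06) and 2.23 ± 0.29 under N-ZFP (adjusted p = 1.33e-05). Irf9, the DNA-binding partner of Stat2, lay between 13.1 and 25.9 CPM in the R6/2 libraries and between 7.12 and 9.56 CPM in the NCAR libraries. Its log2 fold change was 1.11, 1.11, 1.33 and 1.10 under A-ZFP, A-Delta, N-ZFP and N-Delta, with adjusted p of 4.7e-05 or less in each. Stat2, which works in a complex with Irf9, had 15.7 to 28.5 CPM in R6/2 libraries and 16.4 to 27.9 CPM in NCAR libraries, so the genotypes overlapped over nearly their whole range. Its adjusted p was 0.999, 0.343, 0.706 and 0.232 under the 4 viruses in the same order.

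The RNA and DNA sensors were higher for 4 of 4 members under A-ZFP, 2 of 4 under A-Delta, 3 of 4 under N-ZFP and 2 of 4 under N-Delta. Without replicate 2 of the R6/2 mice given A-ZFP, a library that stood apart for the antigen presentation genes, the A-ZFP count was 2 of 4, as Ifih1 (adjusted p = 0.0718) and Dhx58 (adjusted p = 0.0755) lost their calls. Ddx58, which encodes the viral RNA sensor RIG-I, had 9.28, 9.54 and 9.40 CPM in R6/2 mice given A-ZFP, against 6.02, 6.65, 5.27 and 4.96 CPM in NCAR mice given A-ZFP. Under N-Delta it had 10.8, 12.5, 12.5 and 9.57 CPM in R6/2 mice, against 2.71, 4.95, 3.61 and 2.72 CPM in NCAR mice. The groups did not overlap under either virus, but the NCAR libraries given N-Delta were lower than those given A-ZFP. The log2 fold change of Ddx58 was 0.72 under A-ZFP (adjusted p = 0.00259), 0.95 under A-Delta, 0.82 under N-ZFP (adjusted p = 0.00128) and 1.70 under N-Delta. With the length index as a covariate the N-Delta value was 1.36 (adjusted p = 1.21e-05). Zbp1, a sensor of left-handed nucleic acid, was near the limit of detection, with 0.128 to 0.923 CPM in R6/2 mice given A-ZFP and 0.0165 to 0.0404 CPM in NCAR mice given A-ZFP.

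The IFIT genes, whose proteins bind viral RNA, were higher for 4 of 4 members under A-ZFP, N-ZFP and N-Delta and for 3 of 4 under A-Delta. Ifit1 had 7.63, 9.53 and 5.64 CPM in R6/2 mice given A-ZFP, against 1.73, 2.44, 2.63 and 2.87 CPM in NCAR mice given A-ZFP. With N-ZFP it had 15, 8.72, 8.99 and 7.70 CPM in R6/2 mice, against 2.29, 3.33, 2.39 and 1.84 CPM in NCAR mice. Neither pair of groups overlapped, and the log2 fold change was 1.66 (adjusted p = 5.24e-05) and 2.04 (adjusted p = 1.02e-05). Ifit3 was more abundant and had smaller fold changes. It had 17.7 to 29.6 CPM in R6/2 mice given A-ZFP against 9.5 to 12.9 CPM in NCAR mice given A-ZFP, and 10.3 to 22.0 CPM in R6/2 mice given A-Delta against 9.51 to 11.6 CPM in NCAR mice given A-Delta, where the groups overlapped. Its log2 fold change was 1.08 (adjusted p = 0.000707) under A-ZFP and 0.63 (adjusted p = 0.0234) under A-Delta. Ifit3 and Ifit3b are near-identical copies, so how reads were divided between them is uncertain.

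The OAS genes and Eif2ak2, whose protein PKR halts translation on double-stranded RNA, were higher for 5 of 5 tested members under A-ZFP, A-Delta and N-Delta and for 4 of 5 under N-ZFP. Oasl2 had 10.4, 4.10, 5.69 and 6.53 CPM in R6/2 mice given N-ZFP, against 1.67, 1.32, 1.49 and 1.29 CPM in NCAR mice given N-ZFP. Under A-Delta the lowest R6/2 library, at 2.47 CPM, was close to the highest NCAR library, at 2.32 CPM. The log2 fold change of Oasl2 was 2.02, 1.56, 2.21 and 2.53 under A-ZFP, A-Delta, N-ZFP and N-Delta, with adjusted p of 0.000113, 0.000682, 9.02e-05 and 1.81e-06. Eif2ak2 was steadier between libraries. It had 12.0 to 18.7 CPM over the 15 R6/2 libraries and 4.52 to 9.53 CPM over the 16 NCAR libraries, and its log2 fold change was 0.60 (adjusted p = 0.00248), 1.02 (adjusted p = 1.39e-06), 0.90 (adjusted p = 6.39e-05) and 1.46 (adjusted p = 3.74e-09) in the same order of viruses.

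**Figure D2:**
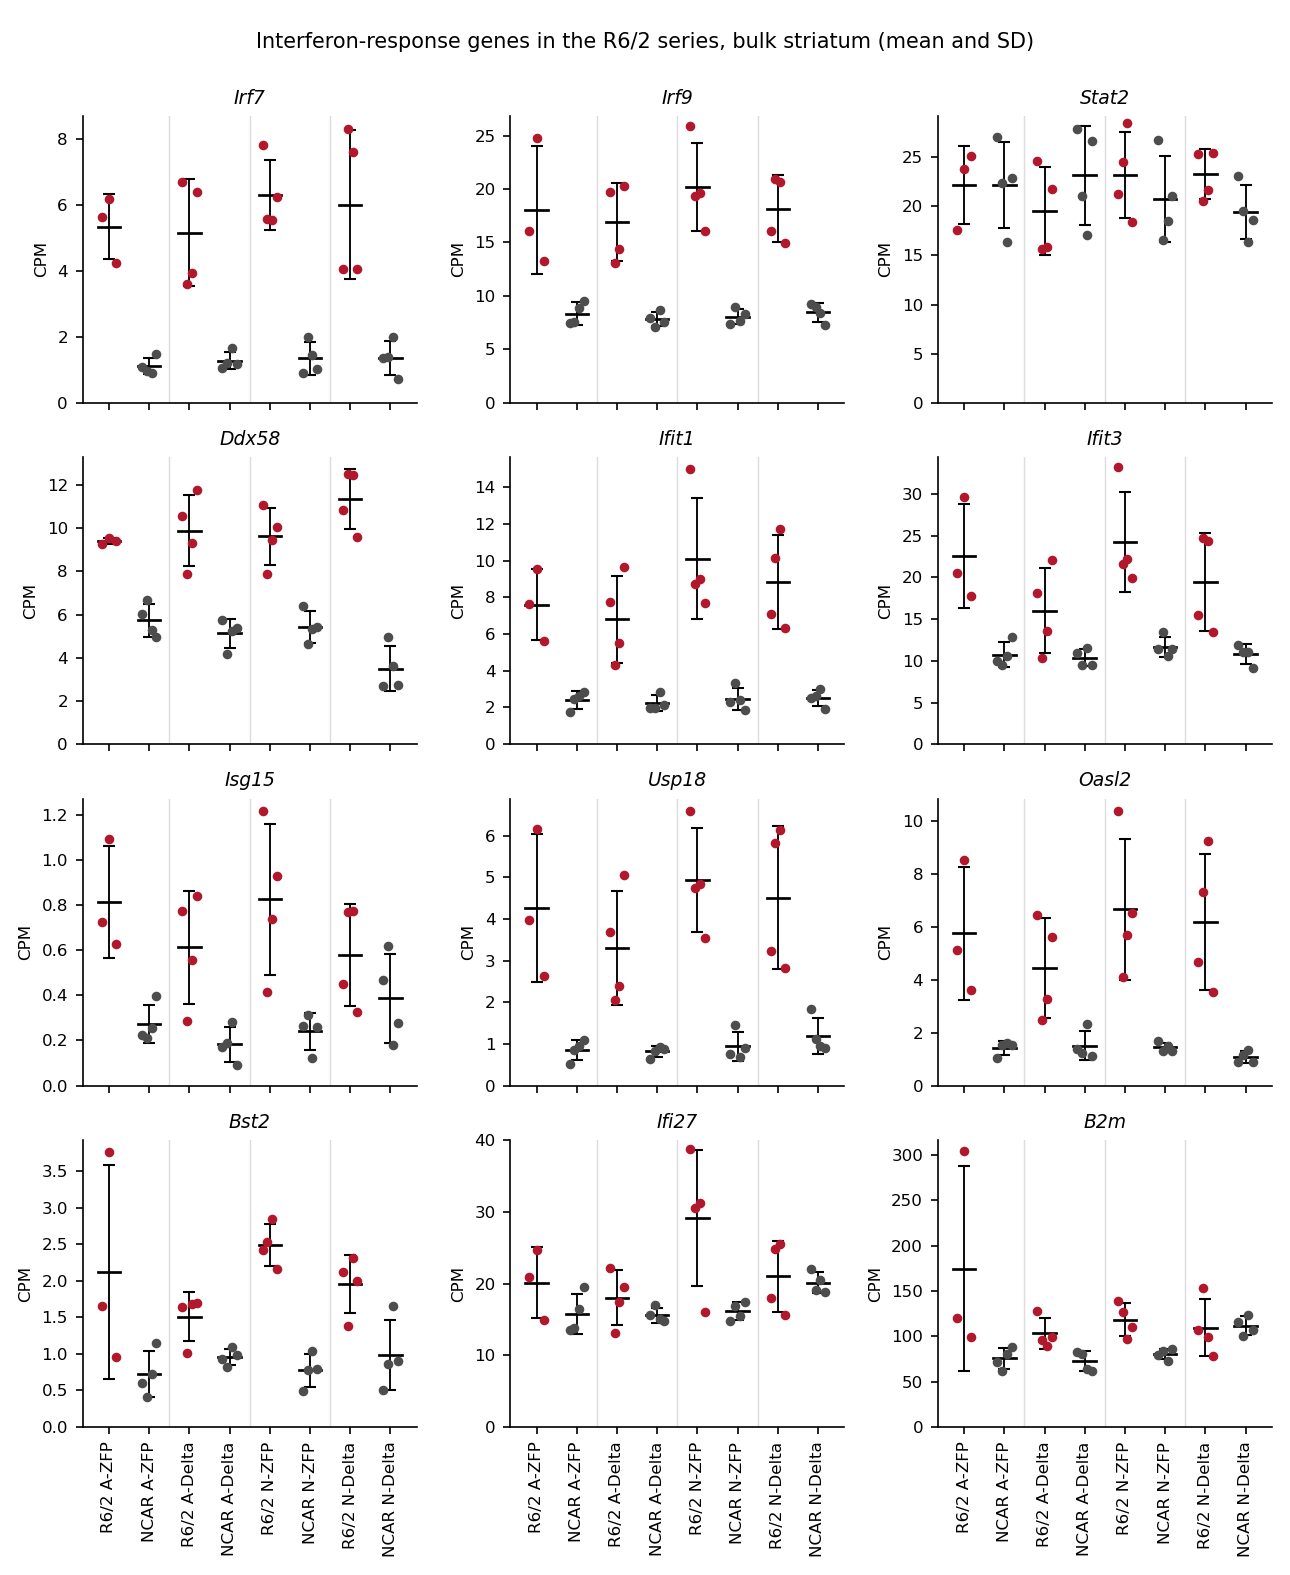
Normalised CPM (linear axis from 0) of 12 interferon-response genes in the 8 groups of the R6/2 series; points are libraries, bars group means and error bars SD. R6/2 libraries lie apart from NCAR libraries for Irf7 (3.59 to 8.31 against 0.733 to 2.00 CPM), whereas Stat2 overlaps and the A-ZFP group of B2m holds 1 library at 304 CPM.

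In the ISG15 system the modifier and its protease rose and the ligase gene Herc6 did not. Usp18, the protease that removes ISG15 and restrains the interferon receptor, had 3.99, 6.15 and 2.63 CPM in R6/2 mice given A-ZFP, against 0.523, 0.865, 0.957 and 1.09 CPM in NCAR mice given A-ZFP. Under N-ZFP it had 6.58, 4.75, 4.84 and 3.55 CPM in R6/2 mice, against 0.749, 1.45, 0.683 and 0.913 CPM in NCAR mice. R6/2 and NCAR libraries of Usp18 did not overlap under any of the 4 viruses, and its log2 fold change was 2.32 (adjusted p = 1.96e-05), 2.01, 2.39 (adjusted p = 3.33e-05) and 1.91 (adjusted p = 3.2e-05) under A-ZFP, A-Delta, N-ZFP and N-Delta. Isg15 was called higher under 3 viruses. It had 0.449, 0.769, 0.773 and 0.328 CPM in R6/2 mice given N-Delta, against 0.467, 0.619, 0.179 and 0.279 CPM in NCAR mice given N-Delta, where the groups overlapped (log2 fold change 0.57, adjusted p = 0.223). Herc6, the main ISG15 ligase of the mouse, had 5.30 to 6.67 CPM in R6/2 mice given A-Delta and 8.49 to 11.5 CPM in NCAR mice given A-Delta, with no overlap. It was called lower under A-Delta (log2 fold change -0.64, adjusted p = 0.00874) and N-Delta (-0.63, adjusted p = 0.00529), and not under A-ZFP (-0.39, adjusted p = 0.174) or N-ZFP (-0.10, adjusted p = 0.838). With the length index as a covariate the N-Delta value of Herc6 was -0.40 (adjusted p = 0.259).

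Of 13 other antiviral effectors, 11 were called higher under A-ZFP, 8 under A-Delta, 11 under N-ZFP and 10 under N-Delta, and 1 was called lower, under N-Delta. Without replicate 2 of the R6/2 mice given A-ZFP, 6 of the 13 were called higher under A-ZFP. Samd9l, which restricts viral translation, had 13.5 to 19.3 CPM in R6/2 mice given N-ZFP and 5.75 to 7.04 CPM in NCAR mice given N-ZFP, and its log2 fold change was 1.40 (adjusted p = 5.73e-07). Bst2, the membrane tether of budding virions, had 2.41, 2.53, 2.84 and 2.16 CPM in R6/2 mice given N-ZFP, against 0.485, 0.784, 1.04 and 0.792 CPM in NCAR mice given N-ZFP. Those groups did not overlap, but the A-Delta groups did, at 1.01 to 1.70 CPM in R6/2 mice against 0.824 to 1.09 CPM in NCAR mice (log2 fold change 0.66, adjusted p = 0.147). Ifi27 was called under N-ZFP alone among the 4 (log2 fold change 0.86, adjusted p = 0.00635). There it had 38.7, 30.6, 31.3 and 16.1 CPM in R6/2 mice, against 14.7, 16.8, 15.5 and 17.5 CPM in NCAR mice, so 3 of the 4 R6/2 libraries lay above all NCAR libraries. Cmpk2 was nearly level at 33 to 44.2 CPM in R6/2 mice given A-ZFP against 33.9 to 37.2 CPM in NCAR mice given A-ZFP. Its call lower under N-Delta (log2 fold change -0.24, adjusted p = 0.0223) was lost with the length index as a covariate (-0.03, adjusted p = 0.872).

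The 4 members of the PARP and Dtx3l group were called higher under each virus. Dtx3l, a ubiquitin ligase that works with Parp9, had the smallest adjusted p of all tested members under A-ZFP, A-Delta and N-Delta. It had 12.4, 13.8 and 11.5 CPM in R6/2 mice given A-ZFP, against 5.36, 7.20, 5.77 and 5.23 CPM in NCAR mice given A-ZFP. With A-Delta it had 12.8, 12.9, 12.6 and 13.3 CPM in R6/2 mice, against 6.38, 5.04, 5.66 and 5.62 CPM in NCAR mice. Both pairs of groups were far apart relative to their spread, with log2 fold changes of 1.09 (adjusted p = 6.07e-07) and 1.18 (adjusted p = 3.34e-08). Parp9 and Dtx3l overlap on opposite strands. The kit keeps strand, but whether the counting used it is not given in the sources used here, so reads of 16 members that overlap a gene on the other strand may be shared with it.

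Of the antigen presentation genes, 4 of 4 were called higher under A-ZFP, 1 of 4 under A-Delta, 0 of 4 under N-ZFP and 1 of 4 under N-Delta. Among all genes 10.2%, 13.7%, 3.09% and 27.1% were called higher in that order. Adding the length index to the fit gave 4, 2, 0 and 0 of 4. Without replicate 2 of the R6/2 mice given A-ZFP, 0 of 4 were called under A-ZFP. B2m had 121, 304 and 98.9 CPM in R6/2 mice given A-ZFP, against 71.7, 61.8, 80.9 and 88.6 CPM in NCAR mice given A-ZFP. Psmb8, an immunoproteasome subunit whose values were chosen after they were seen, had 3.92, 19.6 and 3.64 CPM in R6/2 mice, against 2.30, 2.37, 2.90 and 3.12 CPM in NCAR mice. In both genes the second R6/2 library stood far above the other R6/2 libraries. The log2 fold change under A-ZFP was 1.21 (adjusted p = 0.000626) for B2m and 1.77 (adjusted p = 0.000467) for Psmb8, and without that library it was 0.53 (adjusted p = 0.0535) and 0.50 (adjusted p = 0.107). Without it the count of members called higher under A-ZFP was 25, against 37 with it. Isg15 (log2 fold change 1.31, adjusted p = 0.0546) and Bst2 (0.85, adjusted p = 0.102) also lost their calls, whereas Irf7 kept its call at 2.15. The same library had the highest microglial marker sum of the R6/2 series' A-ZFP groups, at 606 CPM, against 473 and 505 CPM in the other 2 R6/2 libraries given A-ZFP. Its 12 markers of lymphoid and other blood-borne cells other than Cd4 summed to 2.21 CPM, against 0.486 and 0.994 CPM in the other 2 and 0.472 to 0.791 CPM in NCAR mice given A-ZFP. Cd4 went the other way between genotypes, with a mean of 4.46 CPM in R6/2 and 35.3 CPM in NCAR mice given A-ZFP. With Cd4 the sum was 6.57 CPM in that library and 6.06 and 4.46 CPM in the other 2. In NCAR mice given A-ZFP it was 28.8 to 40.6 CPM. Of the 5 such markers tested under A-ZFP, 1 was called lower and 0 higher. The part of these in the result was not tested.

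The spread between libraries of a group was as wide as that between the 4 viruses. The mean log2 difference of the 41 tested members from the NCAR libraries, computed on CPM plus 0.5, was 0.83 ± 0.33 in R6/2 mice given A-ZFP (SD, n = 3), 0.62 ± 0.22 for A-Delta, 0.84 ± 0.19 for N-ZFP and 0.79 ± 0.25 for N-Delta (n = 4 each). The lowest R6/2 library was at 0.39 and the highest NCAR library at 0.13, so no R6/2 library reached the NCAR range.

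**Figure D3:**
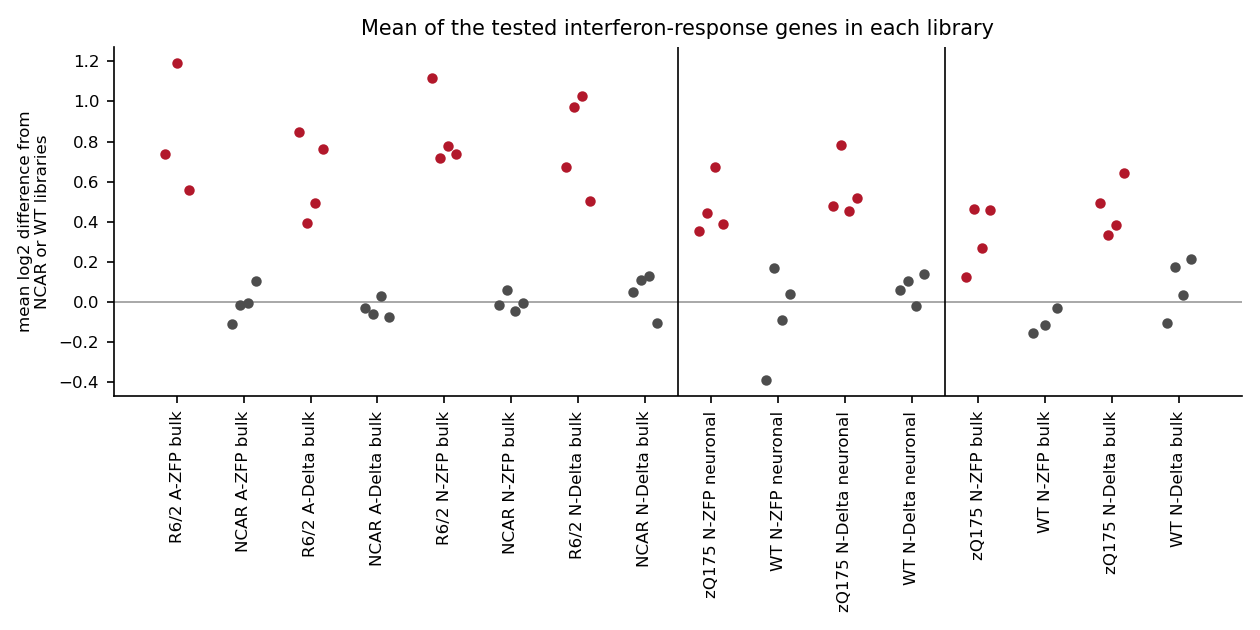
Mean log2 difference (CPM plus 0.5) of the tested interferon-response genes from the control genotype's mean, per library (points) in the 16 groups. R6/2 groups averaged 0.62 to 0.84, zQ175 groups 0.33 to 0.56, and NCAR libraries lay between -0.11 and 0.13.

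The comparison of each repressor with its control virus asks whether the repressor virus changed these genes. That mutant huntingtin was lowered in these libraries is presumed, as the counts do not measure the mutant transcript. In R6/2 mice, A-ZFP over A-Delta gave 0 members called higher and 0 lower of 41 tested by edgeR's test, where 0.0184% and 0.0138% of all genes were called; 7 members had an unadjusted p under 0.05, and DESeq2 called 0. The median log2 fold change of the members was 0.25, with a range of -0.28 to 1.45, and the highest was Psmb9, which shares the high library described above. Irf7 had 5.63, 6.16 and 4.23 CPM in R6/2 mice given A-ZFP against 6.70, 3.59, 3.93 and 6.40 CPM in R6/2 mice given A-Delta (log2 fold change 0.05 ± 0.29), so the groups overlapped. In NCAR mice A-ZFP over A-Delta gave 0 calls in either direction, where 0% and 0.0184% of all genes were called, with 0 members at an unadjusted p under 0.05 and 0 called by DESeq2. The difference of the A-ZFP effect between R6/2 and NCAR mice was called for 0 members and 0% of all genes in each direction, with 3 members at an unadjusted p under 0.05 and 0 by DESeq2. A p that misses the threshold does not show that the viruses acted alike.

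The N-ZFP comparisons called few members. Leaving out 1 library gave 0 to 5 calls in R6/2 mice and 0 to 6 in NCAR mice. Whether the members were called less often than all genes was not tested. In R6/2 mice N-ZFP over N-Delta gave 1 member higher and 1 lower of 41, where 8.2% and 4.86% of all genes were called. Dhx58, the sensor LGP2, was higher (log2 fold change 0.55 ± 0.18, adjusted p = 0.0453) and Dtx3l was lower (-0.43 ± 0.12, adjusted p = 0.0194). Dtx3l had 10.1, 9.17, 9.88 and 10.3 CPM in R6/2 mice given N-ZFP, against 13.3, 11.8, 15.5 and 12.5 CPM in R6/2 mice given N-Delta, with no overlap. All 4 N-ZFP libraries still lay above the NCAR libraries of either N virus, at 3.66 to 6.10 CPM. Irf7 did not move beyond its spread (log2 fold change 0.07 ± 0.27, adjusted p = 0.89). In NCAR mice 2 members were called higher and 2 lower, where 11.8% and 10.2% of all genes were called. Ddx58 had 6.40, 4.62, 5.31 and 5.41 CPM in NCAR mice given N-ZFP, against 2.71, 4.95, 3.61 and 2.72 CPM in NCAR mice given N-Delta (log2 fold change 0.63 ± 0.16, adjusted p = 0.0195). Dtx3l was also higher (0.43 ± 0.12, adjusted p = 0.0251), and Samd9l (-0.42 ± 0.14, adjusted p = 0.0331) and Cmpk2 (-0.24 ± 0.09, adjusted p = 0.0474) were lower. With the length index as a covariate, 0 members were called in R6/2 mice and 0 in NCAR mice. The share of all genes called with this covariate is not given, here or for the comparisons below. These counts therefore do not tell whether the members lost calls more often than other genes.

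The N-ZFP effect in R6/2 mice minus that in NCAR mice was called positive for 3 members and negative for 3 of 41, where 17% and 15.3% of all genes were called. Samd9l (0.59, adjusted p = 0.0207), Ifi27 (0.80, adjusted p = 0.0315) and Cmpk2 (0.33, adjusted p = 0.0429) had positive log2 differences. Dtx3l (-0.86, adjusted p = 0.00233), Ddx58 (-0.87, adjusted p = 0.00727) and Eif2ak2 (-0.56, adjusted p = 0.0257) had negative ones. With the length index as a covariate, 0 were called.

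The control viruses were also compared with each other. In R6/2 mice N-Delta over A-Delta called 0 members and 0% of all genes in each direction by edgeR's test, with 4 members at an unadjusted p under 0.05 and 0 by DESeq2. In NCAR mice it called 1 member higher and 2 lower, where 18% and 19% of all genes were called: B2m was higher (log2 fold change 0.63, adjusted p = 0.033), and Dtx3l (-0.52, adjusted p = 0.00345) and Ddx58 (-0.55, adjusted p = 0.0107) were lower. B2m had 116, 101, 124 and 107 CPM in NCAR mice given N-Delta, against 83.0, 80.6, 63.5 and 62 CPM in NCAR mice given A-Delta, with no overlap. The R6/2 effect under N-Delta minus that under A-Delta was called positive for 2 members, Ddx58 (0.75, adjusted p = 0.0252) and Dtx3l (0.56, adjusted p = 0.0269), and negative for 0, where 11.3% and 11.6% of all genes were called. With the length index as a covariate both counts were 0. The libraries of NCAR mice given N-Delta, which enter each of these comparisons in NCAR mice, are those with the length index of -0.51 to -0.32 given above.

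**Figure D4:**
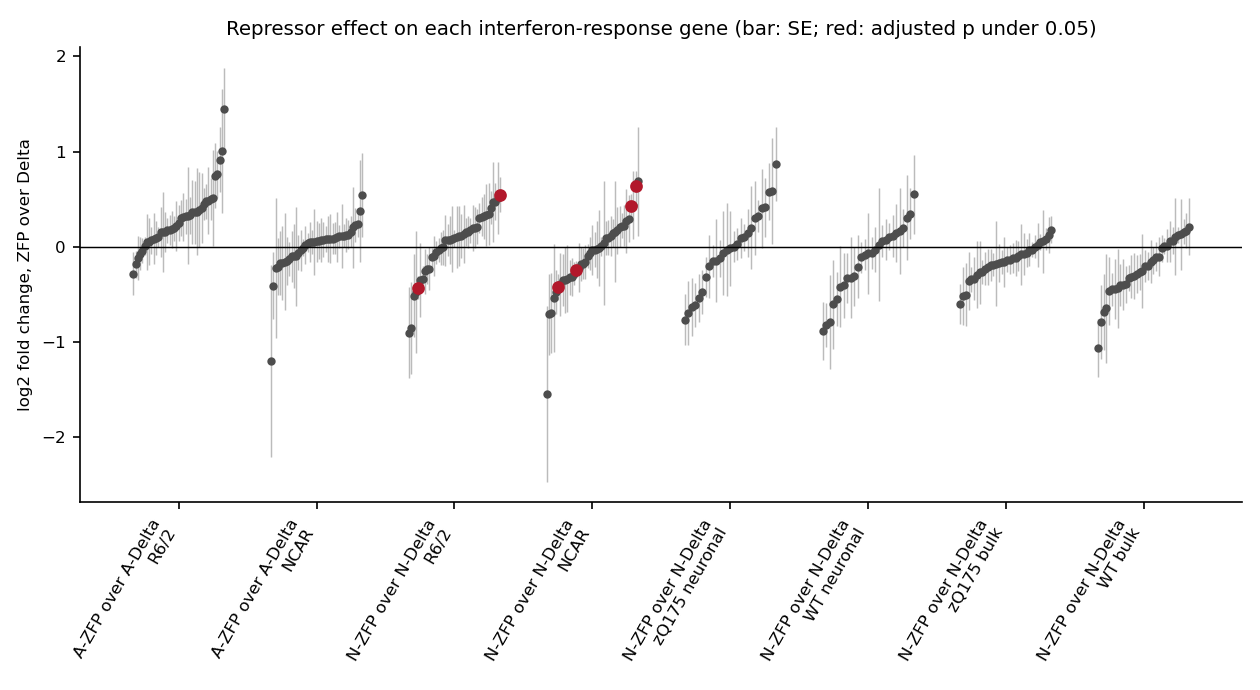
Log2 fold change ± SE of each tested interferon-response gene for ZFP over Delta viruses in 8 comparisons of the 2 series, with called genes in red. The medians run from -0.23 (N-ZFP in WT mice, bulk) to 0.25 (A-ZFP in R6/2 mice), and the called genes are 2 of 41 in R6/2 mice and 4 of 41 in NCAR mice, each for N-ZFP.

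In the zQ175 series some of the interferon-response genes were higher in zQ175 than in WT mice, and 0 were called lower. In bulk tissue 34 of the 42 members could be tested; the 8 others, among them Isg15 and 4 of the OAS genes, had too few counts. Under N-ZFP 7 of 34 were called higher and 0 lower, where 4.69% and 8.23% of all genes were called, with a median log2 fold change of 0.45. Under N-Delta 11 of 34 were called higher and 0 lower, against 6.44% and 9.57% of all genes, with a median of 0.46. The medians over all genes were 0.01 and 0.00. Both viruses called 6 members in common, Irf7, Ifit1, Ifit3, Eif2ak2, Samd9l and Dtx3l, where 2.85% of all genes were called under both. These 6 were also called under all 4 viruses in R6/2 mice, as were 0.596% of all genes tested in both series. Of these calls under N-ZFP, that of Ifit1 was lost in 7 of 13 alternatives, that of Dtx3l in 6, that of Ifit3 in 4, those of Eif2ak2 and Samd9l in 1 each and that of Irf7 in 0. The counts rested on single libraries in part: under N-ZFP they ran from 4 to 13 when 1 library was left out, and under N-Delta from 6 to 13.

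Irf7 again had the largest fold change among the 6. It had 2.66, 2.55, 2.83 and 2.18 CPM in zQ175 mice given N-ZFP, against 1.26, 0.915 and 0.817 CPM in WT mice given N-ZFP. Under N-Delta it had 2.74, 3.00, 3.48 and 3.64 CPM in zQ175 mice, against 0.827, 1.32, 1.29 and 2.07 CPM in WT mice. The genotypes did not overlap under either virus, and the log2 fold change was 1.33 ± 0.30 (adjusted p = 0.00432) and 1.22 ± 0.24 (adjusted p = 0.00163). Ifit1 had 2.55, 4.18, 4.03 and 4.59 CPM in zQ175 mice given N-ZFP, against 1.46, 2.64 and 2.25 CPM in WT mice given N-ZFP, where 1 zQ175 library fell within the WT range (log2 fold change 0.85, adjusted p = 0.0483). Eif2ak2 had 10.1 to 13.5 CPM in the 8 zQ175 bulk libraries and 6.03 to 8.75 CPM in the 7 WT bulk libraries, without overlap. Its log2 fold change was 0.56 under N-ZFP (adjusted p = 0.00859) and 0.63 under N-Delta (adjusted p = 0.00155). Stat2 again differed little (-0.06 and -0.11 under N-ZFP and N-Delta), and Usp18, among the largest changes in R6/2 mice, was not called (0.94, adjusted p = 0.316, and 0.47, adjusted p = 0.535). B2m was called under N-Delta (0.45, adjusted p = 0.0188), at 84.4 to 106 CPM in zQ175 mice against 56.6 to 83.5 CPM in WT mice. Ddx58 was called under N-ZFP (0.78, adjusted p = 0.00304), and under N-Delta it had a log2 fold change of 0.40 (adjusted p = 0.0755). Microglial markers summed to 563 to 629 CPM in zQ175 and 462 to 603 CPM in WT bulk libraries under N-Delta, with 2 of 12 called higher and 0 lower. Under N-ZFP they summed to 447 to 580 CPM and 492 to 509 CPM, with 0 called. Of 8 oligodendrocyte markers, 2 were called higher and 0 lower under each virus. Of 10 astrocyte markers, 2 were called higher under each virus, and 1 lower under N-ZFP and 2 under N-Delta. Striatal neuron markers were called lower for 10 of 10 genes under N-ZFP and 9 of 10 under N-Delta. The part of these shifts in the bulk results was not tested.

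**Figure D5:**
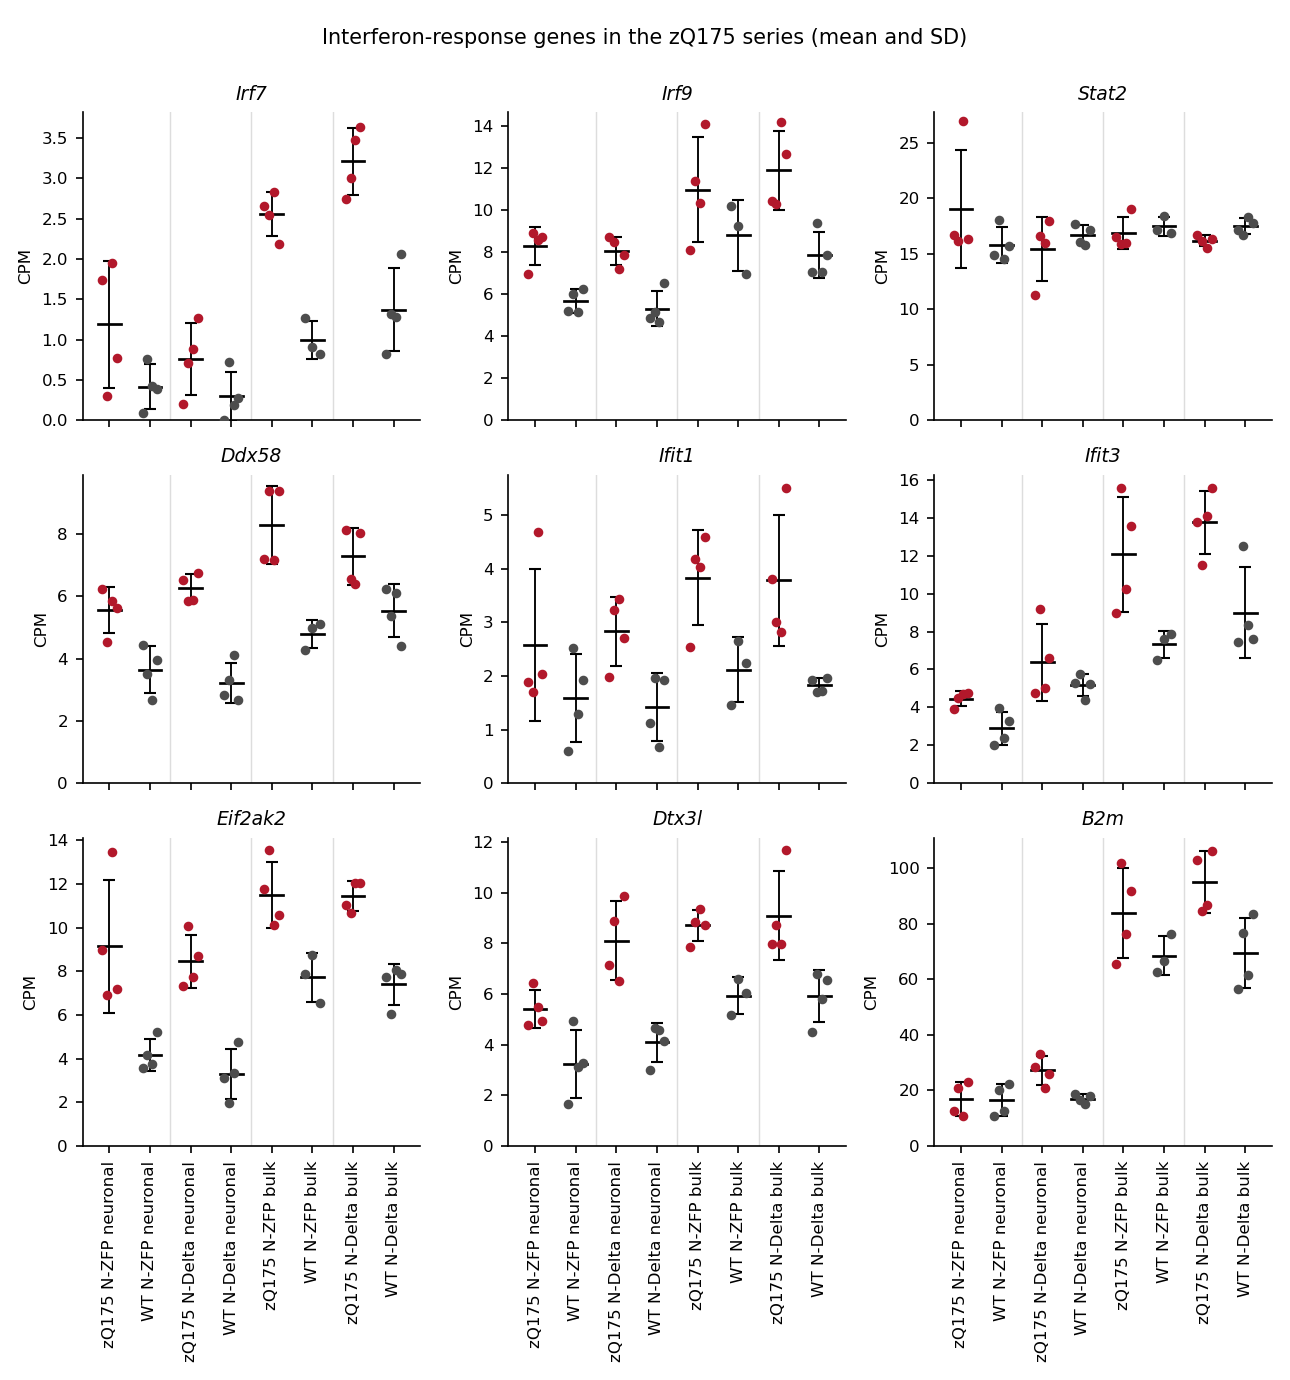
Normalised CPM (linear axis from 0) of 9 interferon-response genes in the 8 groups of the zQ175 series; points are libraries, bars group means and error bars SD. In bulk tissue Irf7 separates zQ175 (2.18 to 3.64 CPM) from WT libraries (0.817 to 2.07 CPM), and B2m is several times lower in neuronal than in bulk libraries.

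In bulk tissue of the zQ175 series N-ZFP over N-Delta called 0 of 34 members in zQ175 mice and 0 in WT mice by edgeR's test, where 0% of all genes were called in either direction, with 3 members at an unadjusted p under 0.05 in each and 0 called by DESeq2. The members' median log2 fold change was -0.15 in zQ175 mice (range -0.60 to 0.18) and -0.23 in WT mice (range -1.07 to 0.21). For Irf7 the zQ175 values were 2.66, 2.55, 2.83 and 2.18 CPM with N-ZFP and 2.74, 3.00, 3.48 and 3.64 CPM with N-Delta, which overlapped. The difference of the N-ZFP effect between zQ175 and WT mice was called for 0 members and 0% of all genes in either direction, with 1 member at an unadjusted p under 0.05 and 0 by DESeq2.

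In neuronal RNA 27 of the 42 members could be tested, and Irf7, Isg15, Usp18 and Bst2 were among the 15 that could not. Irf7 had 1.74, 0.302, 1.95 and 0.775 CPM in zQ175 mice given N-ZFP, against 0.0872, 0.767, 0.429 and 0.386 CPM in WT mice given N-ZFP, which overlapped. Under N-ZFP 4 of 27 members were called higher and 0 lower, where 3.67% and 5.29% of all genes were called, with a median log2 fold change of 0.68. Under N-Delta 8 of 27 were called higher and 0 lower, against 3.33% and 6.03%, with a median of 0.57. Irf9, Eif2ak2 and Trim25 were called under both, as were 1.41% of all genes. Eif2ak2 had 8.98, 6.93, 13.5 and 7.17 CPM in zQ175 mice given N-ZFP, against 3.57, 4.16, 3.76 and 5.21 CPM in WT mice given N-ZFP. Under N-Delta it had 7.33, 10.1, 7.75 and 8.70 CPM in zQ175 mice, against 3.10, 1.96, 3.34 and 4.79 CPM in WT mice. Neither pair overlapped, and the log2 fold change was 1.13 (adjusted p = 0.0144) and 1.33 (adjusted p = 0.00333). Irf9 had 6.95 to 8.94 CPM in zQ175 mice given N-ZFP and 5.15 to 6.27 CPM in WT mice given N-ZFP (log2 fold change 0.56, adjusted p = 0.0228), and 7.22 to 8.72 CPM against 4.68 to 6.54 CPM under N-Delta (0.57, adjusted p = 0.0167). Trim25, a ubiquitin ligase that activates RIG-I, had log2 fold changes of 0.90 (adjusted p = 0.0161) and 0.88 (adjusted p = 0.0137). Ddx58, at 5.85 to 6.76 CPM in zQ175 mice given N-Delta against 2.67 to 4.11 CPM in WT mice given N-Delta, was called there (0.93, adjusted p = 0.00528), and its N-ZFP value was 0.61 (adjusted p = 0.0608).

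The N-ZFP count in neuronal RNA depended on few libraries. Replicates 1 and 3 of zQ175 mice given N-ZFP had microglial marker sums of 65.6 and 100 CPM, where the neuronal libraries otherwise lay between 21.8 and 37.6 CPM. Their endothelial marker sums were 35.2 and 41.4 CPM, against 10.6 to 25.8 CPM in the other neuronal libraries, and mitochondrial genes took 2.51% and 4.31% of their counts, against 1.05% or less. Oligodendrocyte markers summed to 2465 to 5244 CPM in zQ175 mice given N-ZFP and 1889 to 2454 CPM in WT mice given N-ZFP, with 3 of 8 called higher. The part of these in the result was not tested. Without these 2 libraries 2 members, Irf9 and Trim25, were called, and without replicates 1 and 3 of both genotypes 0 were, both settings chosen after seeing the data. With the replicate number as a block, where the numbers were taken to pair the libraries, 6 members were called. Leaving out single libraries gave counts of 1 to 9. Under N-Delta, where the microglial sums were 22.4 to 30.3 CPM in zQ175 mice and 21.8 to 25.1 CPM in WT mice, leaving out single libraries gave 3 to 7 calls against 8 with all. Oligodendrocyte markers there summed to 2236 to 3323 CPM in zQ175 mice and 1472 to 2556 CPM in WT mice, with 2 of 8 called higher and 0 lower. Of 10 astrocyte markers, 1 was called higher and 0 lower. The part of these shifts under N-Delta was not tested. Of the members called under N-Delta, 5 were called in neuronal RNA and in bulk tissue alike (Irf9, Ifit2, Eif2ak2, Samd9l and Dtx3l), as were 2.06% of all genes tested in both. In neuronal RNA N-ZFP over N-Delta called 0 members in zQ175 mice, where 0.133% and 0.196% of all genes were called higher and lower, and 0 in WT mice, where 0.0316% and 0.0948% were. Unadjusted p was under 0.05 for 3 members in zQ175 mice and 2 in WT mice, and DESeq2 called 1 member in zQ175 mice and 0 in WT mice. The difference of the effect between genotypes was called for 0 members and 0% of all genes in each direction, with 0 members at an unadjusted p under 0.05 and 0 by DESeq2.

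Neuronal libraries held less RNA of most members than bulk libraries of the same genotype. Under N-Delta, neuronal over bulk called 1 of 34 members higher and 21 lower in zQ175 mice, where 25.2% and 24.8% of all genes were called, with a median log2 fold change of -0.99. In WT mice it called 1 higher and 24 lower, against 26.3% and 29.6%, with a median of -0.96. Neuronal and bulk libraries share replicate numbers and may come from the same tissue, but the labels do not say so and these tests did not pair them. Deviations of same-numbered libraries correlated at 0.04 to 0.26 in WT mice and -0.02 to 0.12 in zQ175 mice. With the replicate number as a block, neither count of calls moved by over 1.5 times. B2m had 28.5, 33.3, 20.9 and 26.1 CPM in neuronal libraries of zQ175 mice given N-Delta, against 103, 84.4, 86.8 and 106 CPM in their bulk libraries (log2 fold change -1.81, adjusted p = 2.61e-08). In WT mice it had 18.6, 16.6, 15 and 17.9 CPM in neuronal libraries, against 56.6, 76.7, 61.5 and 83.5 CPM in bulk libraries (-2.03, adjusted p = 4.35e-09). These were the members' smallest adjusted p in both genotypes. Cmpk2 was the 1 member higher in neuronal RNA, at 33.3 to 40.3 CPM in neuronal libraries of zQ175 mice against 24.5 to 30.1 CPM in bulk (log2 fold change 0.36, adjusted p = 0.0361), and at 33.7 to 41.3 against 24.8 to 28.7 CPM in WT mice (0.45, adjusted p = 0.00809). Stat2 was not called in either genotype (-0.04 and -0.07). The zQ175 effect in neuronal RNA minus that in bulk tissue was called for 0 of 34 members and 0% of all genes in each direction, with 5 members at an unadjusted p under 0.05 and 0 by DESeq2. Microglial markers, which summed to 21.8 to 30.3 CPM in these neuronal libraries and 462 to 629 CPM in the bulk libraries, were lower too. Astrocyte markers summed to 1506 to 2485 CPM against 4441 to 6310 CPM. Oligodendrocyte markers summed to 1472 to 3323 CPM against 5657 to 8031 CPM. The part of these markers' cells in the difference was not tested.

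Of 69 other genes of the pathway, listed by role, 62 were tested in the R6/2 series. R6/2 over NCAR called 27 higher and 1 lower under A-ZFP, 14 and 2 under A-Delta, 9 and 0 under N-ZFP, and 25 and 5 under N-Delta, where 15 and 0 were called with the length index as a covariate. Among all genes 10.2%, 13.7%, 3.09% and 27.1% were called higher and 12%, 15.3%, 4.25% and 28.4% lower in the same order. Of the interferons, 5 genes were listed and their transcripts were rare: over the 62 libraries Ifnb1 had 2 counts in all, Ifng 24, Ifne 11, Ifnk 1 and Ifna4 0. Among receptors and kinases, 3 of 8 were called higher under A-ZFP, 1 under A-Delta, 0 under N-ZFP and 6 under N-Delta; with the length index as a covariate the counts were 6, 3, 2 and 2. Ifnar1 had 50.9 to 53.4 CPM in R6/2 mice given N-Delta against 37.8 to 40.1 CPM in NCAR mice given N-Delta (log2 fold change 0.42, adjusted p = 1.73e-05), but 44.5 to 56.5 CPM against 39.2 to 49.0 CPM under N-ZFP, where it was not called (0.16, adjusted p = 0.165).

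Guanylate-binding and MHC class I genes respond strongly to interferon gamma. They were called higher for 14 of 17 under A-ZFP, 8 under A-Delta, 5 under N-ZFP and 5 under N-Delta. Under N-Delta 3 were also called lower, where 27.1% of all genes were called higher and 28.4% lower. Adding the length index to the fit gave 6 higher and 0 lower of the 17 under N-Delta. It gave 14, 9 and 5 higher under A-ZFP, A-Delta and N-ZFP. Gbp2 had 6.65 to 39.5 CPM in R6/2 mice given A-ZFP against 4.28 to 5.45 CPM in NCAR mice given A-ZFP (log2 fold change 1.91, adjusted p = 0.000254). H2-K1, an MHC class I heavy chain, had 25.1 to 163 CPM against 11.4 to 22.4 CPM (2.28, adjusted p = 0.000148). In each of the 17 genes the highest R6/2 library given A-ZFP was replicate 2, the library that was also highest for B2m and Psmb8, and the other 2 libraries had at most 7.97 CPM of Gbp2 and 33.9 CPM of H2-K1. Without replicate 2, 5 of these 17 genes were called higher under A-ZFP and 14 of all 62 pathway genes. Under the other viruses neither Gbp2 nor H2-K1 was called. In the zQ175 series 59 of the 69 genes were tested in bulk tissue, with 6 higher and 1 lower under N-ZFP and 7 higher and 1 lower under N-Delta, and 44 in neuronal RNA, with 3 higher and 3 lower under N-ZFP and 4 higher and 1 lower under N-Delta. All genes were called higher and lower in 4.69% and 8.23% under N-ZFP and 6.44% and 9.57% under N-Delta in bulk tissue, and in 3.67% and 5.29% under N-ZFP and 3.33% and 6.03% under N-Delta in neuronal RNA.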

How the data were processed

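Total RNA of striatum was extracted with RNeasy kits and made into libraries with a stranded TruSeq total RNA kit, per the labels' protocols. Per the submitters' processing notes, the genome was mm10, the aligner STAR and the counter HTSeq; versions are not given in the sources used here, nor is whether counting used strand. The deposited values are raw counts of reads for each gene in 62 libraries, not normalized. Symbols came from GENCODE M21 and matched 48349 of 48795 genes. No library pair within a group held identical values.

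The 42 members, the other gene lists and the tests were chosen with earlier results of these data known. Genes named in the text are a panel of 12 members, up to 6 called members per direction and comparison with the smallest p, called genes of the pathway list, members that were untested, extreme or exceptions, and Htt; Psmb8 was added after its values were seen.

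Counts were tested with edgeR 4.0.16 (R 4.3.3): TMM factors, filterByExpr by group, 1 coefficient per group, glmQLFit and glmQLFTest, with Benjamini-Hochberg adjustment over all genes tested. Separate fits held the R6/2 series, the bulk and the neuronal libraries of the zQ175 series, and the last 2 together for neuronal over bulk. CPM use the TMM-scaled library total, and fold changes are on the log2 scale. The scripts were tested on simulated counts. Alternatives were DESeq2 1.42.0, its size factors (RLE), no filter, the 2 or 4 groups of a comparison alone, a replicate block, the length index as a covariate and leaving out each library.

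Replicate numbers were shared between groups in the labels. Same-numbered libraries deviated together, with every pair's correlation over 0.1, in 1 comparison, zQ175 over WT under N-ZFP in neuronal RNA (0.23 to 0.69). The fold changes and adjusted p given for it come from the fit without a replicate block. The numbers were taken to pair the libraries only in the replicate-block alternative, whose count is given with the results.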

Additional observations from a re-analysis of the deposited data

Results flagged for a closer look

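Among 238 groups of 4 libraries examined over 17 members, 9 had a library far from the others, and chance alone gives about 1 in 20 groups. In the neuronal libraries of zQ175 mice given N-ZFP the highest value of Stat2 was 27.0 CPM and that of Ifit1 was 4.69 CPM, both in replicate 3. The highest Usp18 value in neuronal libraries of WT mice given N-ZFP was 0.877 CPM, and the highest Bst2 value in neuronal libraries of WT mice given N-Delta was 1.14 CPM. In bulk tissue, the lowest Bst2 value in R6/2 mice given A-Delta was 1.01 CPM, the lowest Oasl2 value in NCAR mice given A-ZFP was 1.03 CPM, and the highest Cmpk2 value in NCAR mice given N-Delta was 44.4 CPM. In bulk tissue of WT mice given N-Delta the lowest Eif2ak2 value was 6.03 CPM and the highest Herc6 value was 7.63 CPM.

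The effect of N-ZFP over N-Delta in R6/2 mice minus that in NCAR mice passed its own test for Ddx58 (-0.87 on the log2 scale), Eif2ak2 (-0.56), Dtx3l (-0.86), Cmpk2 (0.33), Samd9l (0.59) and Ifi27 (0.80). The R6/2 effect under N-Delta minus that under A-Delta passed for Ddx58 (0.75) and Dtx3l (0.56). None of these 8 differences passed with the length index as a covariate. That index separates the N-Delta groups of the R6/2 series, so it can also take out differences between them.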

How the results depend on the processing

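The counts of members called in R6/2 over NCAR mice stayed within 1.5 times under RLE size factors, DESeq2, no filter, the groups alone, the replicate block and the length index. RLE size factors moved no count by over 1.5 times, and of the called genes named in the text none reversed its direction under an alternative that was run. With the length index as a covariate, 0 members were called for N-ZFP over N-Delta in R6/2 mice (2 without it) and in NCAR mice (4), for the difference between these (6), for N-Delta over A-Delta in NCAR mice (3) and for the R6/2 effect under N-Delta minus that under A-Delta (2). With the groups of the comparison alone, N-ZFP over N-Delta called 0 in R6/2 mice and 0 in NCAR mice, and with no filter it called 1 in R6/2 mice. For zQ175 over WT under N-ZFP in neuronal RNA (4 called), DESeq2 called 7, no filter 2, the length index 11, the groups alone 0, the replicate block 6, and, chosen after seeing the data, leaving out replicates 1 and 3 of zQ175 mice 2 and those of both genotypes 0. For N-ZFP over N-Delta in neuronal RNA of zQ175 mice (0 called), DESeq2 called 1 and the replicate block 1. Blocking on replicate number moved no other count by over 1.5 times. The cause of these shifts was not tested.

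Leaving out 1 library gave 25 to 37 calls in R6/2 over NCAR mice under A-ZFP, 26 to 31 under A-Delta, 27 to 31 under N-ZFP and 29 to 33 under N-Delta. It gave 0 to 5 for N-ZFP over N-Delta in R6/2 mice, 0 to 6 in NCAR mice, 3 to 9 for their difference, 1 to 4 for N-Delta over A-Delta in NCAR mice and 0 to 5 for the difference of the R6/2 effect. In the zQ175 series it gave 4 to 13 under N-ZFP and 6 to 13 under N-Delta in bulk tissue, 1 to 9 and 3 to 7 in neuronal RNA, and 0 to 2 for N-ZFP over N-Delta in neuronal RNA of zQ175 mice. In bulk tissue under N-ZFP the count was 4 without zQ175 replicate 2 or 4 or WT replicate 1 and 13 without zQ175 replicate 1; under N-Delta it was 7 without zQ175 replicate 4 and 6 without WT replicate 1. In neuronal RNA under N-ZFP it was 9 without zQ175 replicate 2, 1 without WT replicate 1 and 2 without WT replicate 4; under N-Delta it was 3 without zQ175 replicate 2, 5 without zQ175 replicate 4, 4 without WT replicate 1 and 5 without WT replicate 2 or 3. Depth limits the zQ175 series most, where 8 members in bulk tissue and 15 in neuronal RNA had too few counts to test.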
